A study of Mus musculus with 24 samples.

Results

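A set of 79 probes for 75 genes gave no signal over background in any control liver. Each gave a signal over background in every DNMT1 knockout liver at week 4. For 14 of the genes another probe was over background on at least 1 control array. The 79 were chosen by an intensity under 16.3 on all 12 control arrays and over 16.3 on all 4 knockout arrays of week 4. Of the 25697 probes of the array, 79 met this rule once the Bglap, Magea, Tex19, Wfdc, Gst, Klra and Mmp families and 8 single genes had been left aside. The 79 probes carry 76 symbols in the file and 75 current ones, of 17890 on the array. The intensity 16.3 is a background level taken from the noise of the background-subtracted values, and "over background" below means a value over it.

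Total RNA of mouse liver was hybridised to an Illumina mouse expression array, 1 liver sample per array. The knockout samples, labelled KO, carry a DNMT1 knockout and were taken at weeks 4, 8 and 20 (KO4, KO8 and KO20, 4 arrays each). The control samples, labelled FL, were taken at the same weeks (FL4, FL8 and FL20, 4 arrays each). The labels do not say what a week is counted from, how the allele was deleted, in which cells, in what strain, or what alleles the controls carry. They do not say either whether the 4 arrays of a group are 4 animals, so p-values measure the spread between arrays, which may be technical.

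DNMT1 is the maintenance DNA methyltransferase: after replication it copies the methyl marks of CpG dinucleotides to the new strand. Loss of the enzyme in dividing cells dilutes the marks, and promoters that methylation keeps silent can become active. Germline genes with CpG-rich promoters are the best known class of such genes in mouse somatic tissue. Liver tissue holds hepatocytes together with macrophages, stellate, endothelial and bile duct cells, and an array of whole tissue reads all of them.

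Promoter sequence is shown for 4 genes, 3 germline genes and a noncoding gene, because their CpG content runs from dense to none. They were picked by hand and do not stand for the set. The windows cover 250 bases before to 50 bases after the transcription start (RefSeq, build GRCm38.p6), and capitals mark CpG dinucleotides.
Smc1b, chr15:85131908-85132207, minus strand: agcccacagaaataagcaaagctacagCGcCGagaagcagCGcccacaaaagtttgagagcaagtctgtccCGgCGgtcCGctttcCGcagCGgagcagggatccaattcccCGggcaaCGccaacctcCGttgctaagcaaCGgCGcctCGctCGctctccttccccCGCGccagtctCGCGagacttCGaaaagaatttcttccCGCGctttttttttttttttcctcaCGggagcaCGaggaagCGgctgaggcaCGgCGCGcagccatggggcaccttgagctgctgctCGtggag
Tuba3b, chr6:145615713-145616012, plus strand: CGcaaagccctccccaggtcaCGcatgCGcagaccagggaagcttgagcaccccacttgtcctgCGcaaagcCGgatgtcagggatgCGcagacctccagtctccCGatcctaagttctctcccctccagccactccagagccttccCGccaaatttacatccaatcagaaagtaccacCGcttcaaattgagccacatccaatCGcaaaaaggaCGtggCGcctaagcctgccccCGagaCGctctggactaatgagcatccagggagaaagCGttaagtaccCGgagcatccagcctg
Tuba3a, chr6:125286032-125286331, minus strand: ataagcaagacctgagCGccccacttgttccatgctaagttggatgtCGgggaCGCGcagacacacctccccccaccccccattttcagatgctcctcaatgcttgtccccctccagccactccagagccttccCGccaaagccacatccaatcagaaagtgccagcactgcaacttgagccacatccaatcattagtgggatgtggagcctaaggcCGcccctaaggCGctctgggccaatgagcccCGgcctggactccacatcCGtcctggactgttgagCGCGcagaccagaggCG
Gm1698, chr8:27582442-27582741, plus strand: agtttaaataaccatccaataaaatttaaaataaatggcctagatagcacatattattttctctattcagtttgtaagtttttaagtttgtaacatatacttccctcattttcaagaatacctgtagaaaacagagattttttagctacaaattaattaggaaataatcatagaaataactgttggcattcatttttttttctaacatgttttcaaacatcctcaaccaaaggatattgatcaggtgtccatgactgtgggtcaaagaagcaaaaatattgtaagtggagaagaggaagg

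The Smc1b window holds 29 CpG dinucleotides in 300 bases, an observed-over-expected ratio of 1.08. The Tuba3b window holds 16 (ratio 0.68) and the Tuba3a window 12 (ratio 0.47), while the Gm1698 window holds 0. The longest run of letters shared by the Tuba3a and Tuba3b windows is 33 bases, the stretch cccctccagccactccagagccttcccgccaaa in lower case. A window was at hand for 48 of the 75 genes, fewer than 80%, so a check of CpG content over the set is void and its values are not given.

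The 24 arrays had nearly the same share of signal, with 12191 to 12277 probes over background on each. KO8 replicate 4 stood apart in its sex-linked signal. It read -10.8 for the Y-linked Eif2s3y, against 544.3 to 600.1 on the other 3 KO8 arrays. It read 154.6 for the Y-linked Ddx3y, against 1660.7 to 2442.5, and 130.8 for the X-inactivation transcript Xist, against 33.6 to 42.7. The main counts that use this array, and most genes for which it is named as the low one, are also given without it. Control arrays were not uniform either. The pancreatic gene Pnlip ran from -4.3 to 2259.7 in FL4, and neutrophil markers summed to 296 to 31816 in FL20. The 1 probe for Dnmt1 averaged 77.7 ± 23.4 in KO4, 77.2 ± 7.2 in KO8 and 52.1 ± 15.3 in KO20, against 95.0 ± 25.8 in FL4, 98.9 ± 7.2 in FL8 and 84.6 ± 13.5 in FL20 (SD, n = 4 each). The knockout and control arrays overlapped at weeks 4 and 20. Where this probe lies relative to the deleted part is not given, so it does not check the labels.

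The 97 probes that met both thresholds, left-aside symbols included, were 1.07% of the 9105 probes silent in all controls. This share is set by the rule and carries no test. At the threshold itself, Smc1b had its lowest KO4 value at 16.38, and Arhgap22, just outside, at 16.03. On the control side Tmprss4 reached 16.2 on 1 array, and Gpnmb, just outside, 16.35. The set is therefore bright at one end and close to background at the other: 24 probes averaged over 100 in KO4 and 39 averaged under 50.

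Most of the probes were still on throughout KO8, and almost none was on throughout KO20. Of the 79 probes, 63 (79.7%) were over background on all 4 KO8 arrays, beside 127 of the 9026 other probes silent in controls (1.41%). On all 4 KO20 arrays 1 probe was over background (1.27%), beside 8 of those 9026 (0.0886%). That probe belongs to Gramd1b, a sterol transfer protein. The 9026 include the 18 left-aside probes that met both thresholds. These 18 supply 16 of the 127 probes on throughout KO8 and 6 of the 8 on throughout KO20. By array, 75, 73, 74 and 66 of the 79 were over background in KO8 replicates 1 to 4, and 20, 13, 17 and 22 in KO20 replicates 1 to 4. On control arrays the count is 0 by choice. Of all 9105 probes silent in controls, the set included, 414, 335, 427 and 327 were over background in KO8 replicates 1 to 4. In KO20 replicates 1 to 4 it was 344, 197, 297 and 166.

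The 16 probes not over background on every KO8 array fall in 3 kinds. Rhox6, Olfr815 and Grip1 were under background on all 4, and Olfr1463, Olfr1054 and Sag on 2. The other 10 were under on 1 array, which for 7 of them was KO8 replicate 4. Without that array 70 of the 79 (88.6%) were over background throughout KO8, beside 1.92% of the other probes silent in controls.

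In KO20, 37 probes were over background on no array, 22 on 1, 11 on 2 and 8 on 3. The 8 belong to Col28a1, Ifi27l2b, Clec2g, Cdkn2b, Nxpe4, Cst6, Tmem45b and Casp4. Thus 42 of the 79 probes reached the threshold on at least 1 KO20 array. The same count was not made for the other probes silent in controls. The highest KO20 value of the 42 ran from 17.3 to 69.1, with a median of 29.1, and lay over 24 for 27 of them.

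**Figure D1:**
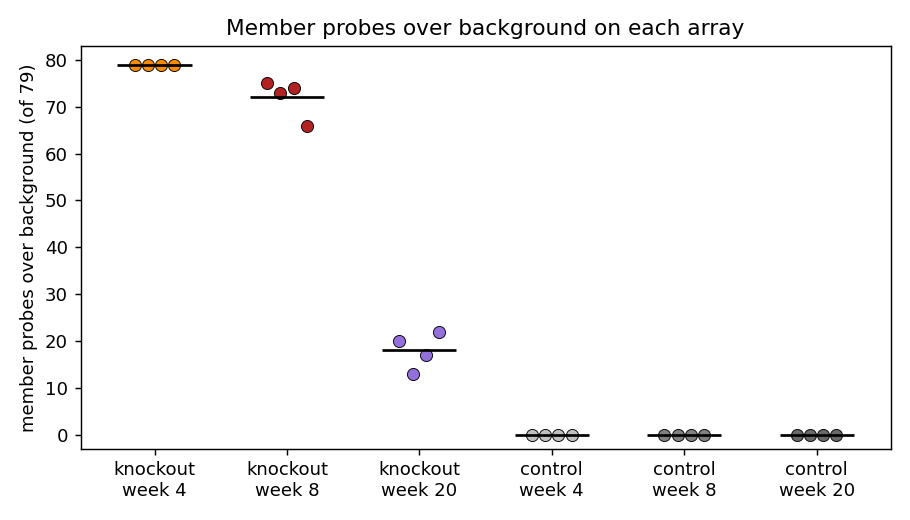
Number of the 79 probes over background (intensity over 16.3) on each array, by genotype and week; each point is an array and each line the mean of 4. KO4 arrays lie at 79 and control arrays at 0 by choice, KO8 arrays between 66 and 75, and KO20 arrays between 13 and 22.

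The fall between weeks 8 and 20 was tested within the knockout livers, as a difference between arrays that the choice of probes did not use. The spread in the model came from all 24 arrays, among them the control and KO4 arrays that the choice did use. It is therefore not independent of the choice. In limma, 68 of the 79 probes (86.1%) were lower in KO20 than in KO8 at an adjusted p under 0.05, beside 19.9% of all 14545 probes tested. None was higher, at an adjusted or an unadjusted p under 0.05, beside 20.4% of all probes. All 79 differences lay below 0, from -5.53 to -0.14 on the log2 scale, with a median of -1.58 beside 0.051 over all tested probes. Every KO20 array lay below every KO8 array for 58 of the 79 (73.4%), beside 17% of all tested probes. Without KO8 replicate 4 it was 67 of the 79 (84.8%), beside 19.6%, and limma called 71 lower. The test uses log2(intensity + 16), which understates the change of dim probes. In a fit of the KO8 and KO20 arrays alone, 75 of the 79 results stayed the same. There 3 probes lost the call and 1 gained it.

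Between weeks 4 and 8 the set had no common direction. The KO8 mean was above the KO4 mean for 39 probes and below it for 39, with a median ratio of 1.0. All KO8 arrays lay above all KO4 arrays for 7 probes (8.86%, beside 6.5% of all tested probes) and below them for 12 (15.2%, beside 5.75%). Without KO8 replicate 4 the counts were 12 above (15.2%, beside 9.88%) and 12 below (15.2%, beside 9.24%). As KO4 values chose the probes, these shares are descriptions. The 7 found with all arrays belong to Sdcbp2, Sh3pxd2b, Ydjc, Fermt1, Cdkn2b, Nxpe4 and Gpr137b. Among the 12 below were 4 olfactory receptors, Rhox6, Ifi27l2b and Rbp7.

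**Figure D2:**
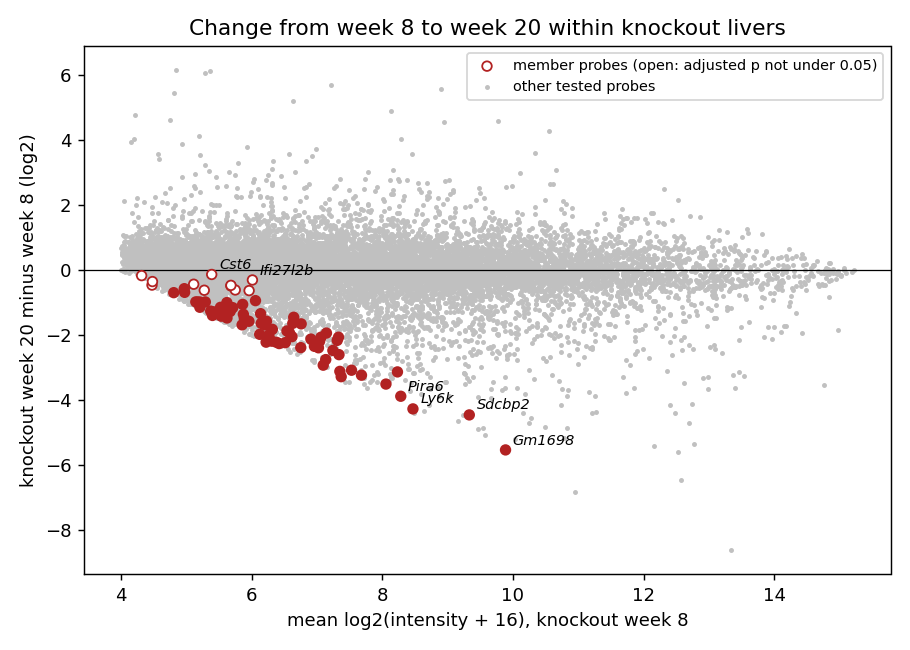
Difference between knockout livers at week 20 and week 8 (y axis, log2 scale) against the mean log2(intensity + 16) in knockout livers at week 8 (x axis) for 14545 tested probes. Red points are the 79 probes, filled where the limma adjusted p is under 0.05; all lie below 0, from -5.53 for Gm1698 to -0.14 for Cst6.

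The genes are described below by known role, a grouping made after their values had been seen. It places 42 genes with 46 probes, and 33 genes with 1 probe each have no role given. Folds written "at least" set the brighter group's mean log2 intensity against a floor: on each array of the other group, the higher of the background level and the probe's own value. They are given where that group has no array over background.

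The germline group holds Tuba3a with 2 probes, Tuba3b, Smc1b, Tex13b and Rhox6. Of its 6 probes 3 were over background on all KO8 arrays, 5 on no KO20 array, and 5 fell between weeks 8 and 20. In KO8 a Tuba3a probe and the Tex13b probe were under background on replicate 4 only (8.7 and -2.5). Tuba3a and Tuba3b encode alpha-tubulins of the testis. Tuba3b read 93.8, 185.4, 239.8 and 167.1 in KO4, 113.0, 38.8, 93.7 and 46.5 in KO8 and 0.7, -6.0, 0.8 and 6.7 in KO20, against -5.9 to 8.0 in controls (median 1.5). It was on in all 8 early knockout livers and in no KO20 liver, at least 4.05-fold higher in KO8 than in KO20 (difference -2.22 ± 0.27 on the log2 scale, SE; limma adjusted p 2.52e-07).

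One Tuba3a probe read 92.8, 236.4, 206.9 and 212.4 in KO4, 93.6, 32.2, 108.3 and 37.3 in KO8 and 5.5, 8.8, -4.5 and -10.2 in KO20, against -10.5 to 2.8 in controls (median -4.5). The KO8 mean was 0.36 of the KO4 mean, with the groups overlapping. The difference between KO20 and KO8 was -2.0 ± 0.27 (limma adjusted p 1.96e-06). The second probe followed with -1.23 ± 0.33 (limma adjusted p 0.00364), but not when set against the change in controls (-1.15, adjusted p 0.0632). The Tuba3 genes are close copies, so a probe of one may bind transcripts of the other.

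Smc1b encodes a cohesin subunit of meiosis. It read 23.7, 20.5, 22.9 and 16.4 in KO4, 42.3, 17.5, 42.0 and 23.6 in KO8 and -18.2, 4.6, -6.5 and 19.1 in KO20, against -5.5 to 14.9 in controls. These values lie close to background, and 1 KO20 array overlapped KO8 (difference -1.15 ± 0.26, limma adjusted p 0.000981). Tex13b, a testis-expressed gene on the X chromosome, averaged 40.1 ± 7.8 in KO4, 25.0 ± 21.1 in KO8 and -1.0 ± 3.1 in KO20 (SD, n = 4 each), with KO8 replicate 4 at -2.5. Without that array KO8 averaged 34.1 ± 12.9 (n = 3), and the difference between KO20 and KO8 was -1.55, against -1.15 with it. Another Tex13b probe was over background on no array, with means of 2.6 in KO4, -3.8 in KO8 and -3.8 in KO20. Rhox6, a homeobox gene of the reproductive tract and germline, was on in KO4 only: 23.8, 42.1, 26.1 and 57.1 in KO4, 6.1, 5.6, 16.2 and -4.1 in KO8, and under background in KO20. Its difference between KO20 and KO8 was -0.46 ± 0.23 (limma adjusted p 0.109), and -0.62 without KO8 replicate 4 (adjusted p 0.04).

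A germline list of 115 genes on the array gives the setting. Of its 173 probes 119 were silent in all controls. Of these, 6 were over background on all KO4 arrays, which are the 6 above, 4 on all KO8 arrays and 0 on all KO20 arrays. Among the 44 tested probes of the list outside the set, 14 were lower and 2 higher in KO20 than in KO8.

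The Y-linked genes were Usp9y, a ubiquitin-specific peptidase, and Gm20815, a member of a multicopy region. Usp9y read 97.2, 26.7, 26.1 and 29.5 in KO4, 83.4, 19.5, 49.2 and -8.0 in KO8 and -8.7 to 7.7 in KO20, against -12.2 to 13.6 in controls. Gm20815 read 113.3, 91.8, 122.7 and 4.5 in KO8, and -3.2 to 3.5 in KO20. In both the low KO8 array was replicate 4, the one low for Eif2s3y and Ddx3y. Without it the difference between KO20 and KO8 was -1.79 for Usp9y and -2.84 for Gm20815, against -1.31 and -2.19 with it. Eif2s3y was high in every control group (means 626.6 in FL4, 597.3 in FL8 and 579.1 in FL20), so the control livers did carry Y-linked signal. Without these 2 probes 66 of 77 fell between weeks 8 and 20, and without KO8 replicate 1 Usp9y did not pass (-0.92, limma adjusted p 0.0552).

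The 4 olfactory receptor genes, whose receptors normally serve the nasal epithelium, were already lower at week 8. Olfr1463 read 137.8, 174.5, 157.7 and 224.1 in KO4, 57.6, 15.3, 30.0 and 14.2 in KO8 and -5.4 to 0.2 in KO20, against -14.1 to 11.3 in controls. Olfr815 read 19.5 to 29.0 in KO4 and -5.2 to 10.5 in KO8. For all 4, every KO8 array lay below every KO4 array. Of the group, 1 probe was over background throughout KO8, 4 were over it on no KO20 array, and 3 fell between weeks 8 and 20. Olfactory receptor genes resemble each other, and cross-binding was not tested.

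**Figure D3:**
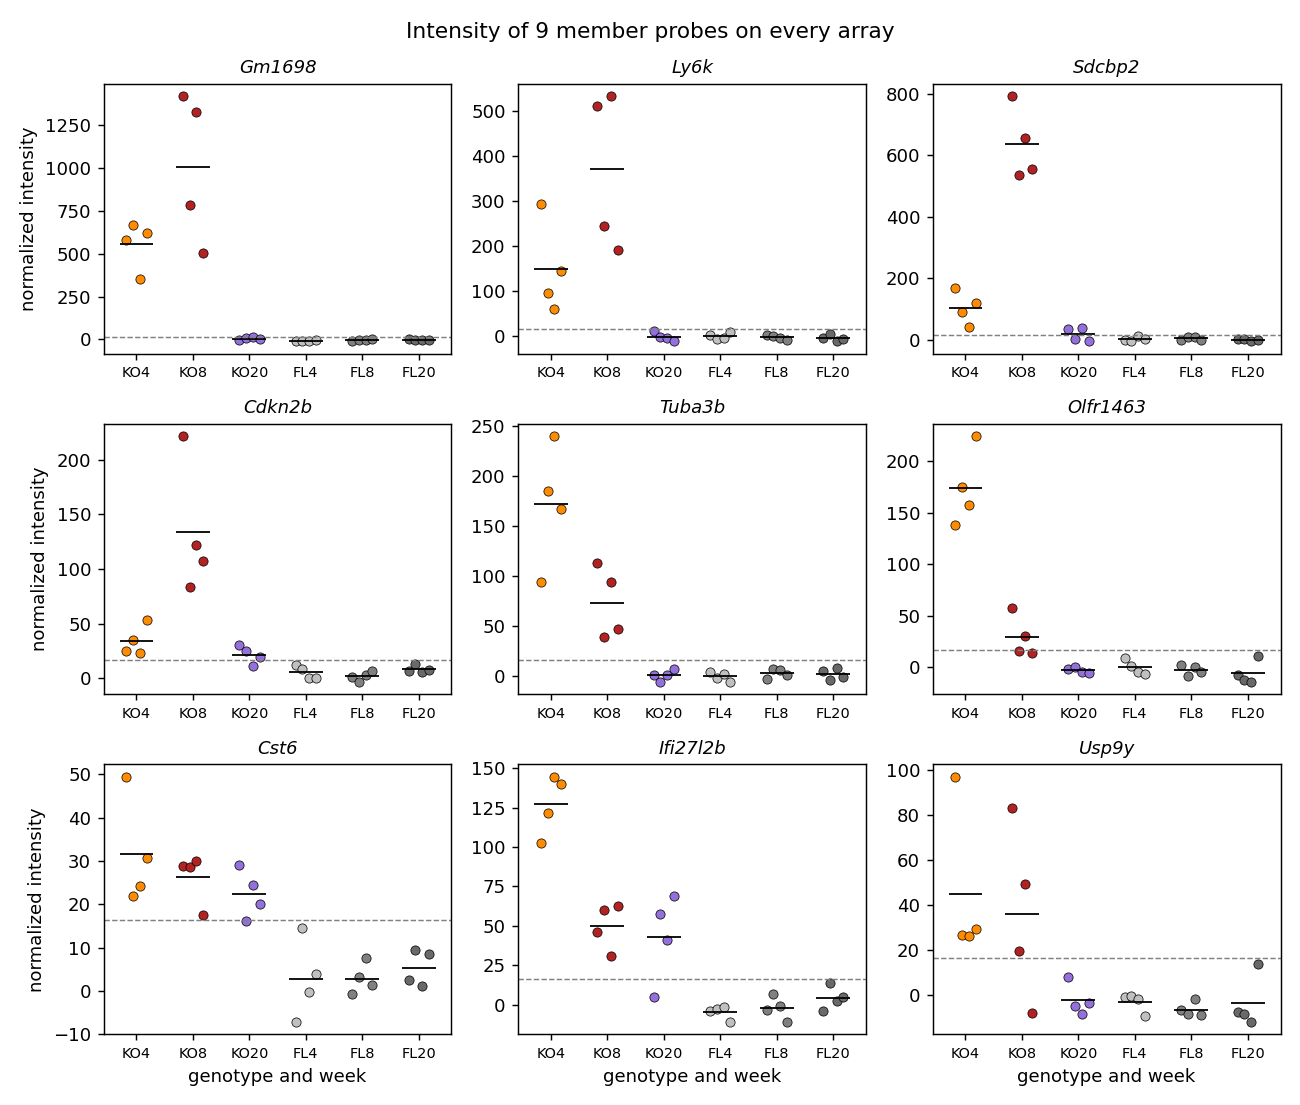
Normalized intensity of 9 of the probes on every array (points, 4 per group; lines, means), for knockout (KO) and control (FL) livers at weeks 4, 8 and 20; the dashed line is the background threshold of 16.3. Gm1698, Ly6k and Sdcbp2 were high in KO8 and near background in KO20, Olfr1463 was lower in KO8 than in KO4, and Cst6 and Ifi27l2b were over background on 3 of 4 KO20 arrays.

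The epithelial group has 6 genes with 7 probes. All 7 were over background throughout KO8, 2 on no KO20 array, and 7 fell, with a median difference of -2.47. Over the whole set 86.1% fell. Every probe also fell in the Y-linked, growth signal, membrane, matrix, and stress and cell cycle groups. Sdcbp2 encodes syntenin-2, a PDZ protein that binds membrane lipids. It read 169.3, 90.0, 41.2 and 118.8 in KO4, 793.8, 537.3, 656.7 and 556.7 in KO8 and 33.5, 1.8, 37.4 and -2.9 in KO20, against -5.5 to 13.1 in controls (median 0.4). The KO8 mean was 6.07 times the KO4 mean without overlap, and KO20 lay below both (difference from KO8 -4.45 ± 0.35, limma adjusted p 2.57e-10).

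Ly6k encodes a GPI-anchored surface protein first known from testis and squamous tumours. It read 293.8, 97.0, 59.7 and 144.2 in KO4, 512.7, 245.2, 534.5 and 191.7 in KO8 and 12.1, -2.0, -3.2 and -11.5 in KO20, against -10.4 to 8.7 in controls. KO8 was at least 20.7-fold above KO20 (difference -4.27 ± 0.33, limma adjusted p 2.29e-10). Muc13, a transmembrane mucin of the gut, read 210.4, 190.7, 176.7 and 67.4 in KO8 and -9.8 to 4.8 in KO20, with the low KO8 value again on replicate 4. Its difference was -3.28 ± 0.30 (limma adjusted p 3.36e-09), and -3.61 without that array.

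Vil1, the actin-bundling villin of microvilli, averaged 45.1 ± 8.2 in KO4, 43.3 ± 12.2 in KO8 and 13.2 ± 9.6 in KO20 (SD, n = 4 each). Fermt1, the integrin activator kindlin-1, averaged 36.6 ± 7.7, 88.9 ± 37.9 and 24.7 ± 21.1 in the same order and stayed over background on 2 KO20 arrays, at 29.6 and 51.7. Tmprss4, a membrane serine protease, fell with both of its probes in the set (-2.47 ± 0.30 and -2.06 ± 0.32). Its other probe averaged 11.8 in KO4, 9.4 in KO8 and 11.7 in KO20. That probe was over background on no KO4 or KO8 array and on 4 control arrays, so the Tmprss4 probes disagree. Krt19, a keratin of bile duct cells, averaged 7.1 ± 4.5 in KO4, 18.6 ± 20.9 in KO8 and -0.6 ± 8.9 in KO20. Sox9, a transcription factor of bile duct and progenitor cells, read 3.5 to 21.1 in KO4, 16.4 to 36.6 in KO8 and 6.3 to 24.2 in KO20. Krt7, another keratin of bile duct cells, averaged 13.5 in KO4, 24.2 in KO8 and 14.2 in KO20. Its control means were higher, at 17.3 in FL4, 32.8 in FL8 and 26.9 in FL20.

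Markers of bile duct and progenitor cells moved in the same direction as the epithelial genes. Over the 30 genes of that list on the array, intensity summed to 18364 to 24937 in KO4, 26392 to 36259 in KO8 and 5645 to 7486 in KO20, against 8667 to 11087 in FL4, 5493 to 6835 in FL8 and 5478 to 6338 in FL20. None of its 30 tested probes belongs to the set, and 14 were lower and 0 higher in KO20 than in KO8. The part of these cells in the fall of the epithelial genes was not tested.

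Cystatins block cysteine proteases. Csta2 and Cstdc4, stefin-type cystatins, lie on chromosome 16 with 1 protein-coding gene between them, the only pair of the set with at most 5 genes between its members. Csta2 read 109.7, 148.4, 102.7 and 138.2 in KO4, 107.0, 56.4, 71.1 and 24.1 in KO8 and -4.7 to 0.2 in KO20, against -10.1 to 1.8 in controls. Cstdc4 read 64.3 to 101.8 in KO4, 39.9 to 116.6 in KO8 and -5.1 to 6.4 in KO20. Their differences between KO20 and KO8 were -2.22 ± 0.23 and -2.26 ± 0.24, and their probes may bind each other's transcripts.

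Cst6, cystatin M/E of skin, was over background on 3 KO20 arrays. It read 49.5, 22.0, 24.3 and 30.8 in KO4, 28.8, 28.7, 30.0 and 17.5 in KO8 and 29.1, 16.1, 24.4 and 20.0 in KO20, against -7.2 to 14.5 in controls (median 2.8). The lowest KO20 array lay just under the threshold and above the highest control. Its difference between KO20 and KO8 was -0.14 ± 0.23, the smallest of the 79 (limma adjusted p 0.678), which does not show that the level was constant. Another Cst6 probe was under background on all 24 arrays, with means of -4.3 in KO4, 6.0 in KO8 and -0.5 in KO20, so this account rests on 1 dim probe.

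The secreted growth signals were Areg and Nrg1, ligands of the ErbB receptors, and Bmp8b, a bone morphogenetic protein. All 3 were over background throughout KO8 and fell by week 20. Bmp8b read 164.6, 116.0, 66.9 and 113.5 in KO4, 141.2, 99.9, 142.7 and 105.4 in KO8 and 1.1, -0.8, 8.2 and -0.2 in KO20, against -9.6 to 4.3 in controls. Its KO4 and KO8 arrays overlapped, and it was at least 7.4-fold above KO20 at week 8 (difference -2.92 ± 0.21, limma adjusted p 6.69e-11). Areg averaged 46.6 ± 13.8 in KO4, 57.3 ± 23.3 in KO8 and 1.0 ± 3.5 in KO20, with a difference of -1.98 ± 0.23. Nrg1 averaged 72.1 ± 27.1, 68.6 ± 28.3 and 8.0 ± 10.6 in the same order, with 1 KO20 array over background at 23.8.

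Kcnh1, Mas1 and Cdh19 stand for the membrane proteins. Kcnh1, a voltage-gated potassium channel of brain, read 391.6, 213.0, 129.4 and 180.3 in KO4, 437.8, 153.4, 262.7 and 67.0 in KO8 and -1.2, 3.8, 29.1 and -3.2 in KO20, against -10.2 to 5.8 in controls. The second Kcnh1 probe stayed under background on every KO4 and KO8 array (means 7.6 in KO4 and 5.1 in KO8), so the 2 probes of this gene disagree. Mas1, a receptor for angiotensin-(1-7), averaged 120.2 ± 42.0 in KO4, 120.7 ± 42.2 in KO8 and 13.1 ± 28.2 in KO20, with 1 KO20 array at 50.5. Cdh19, a cadherin of the neural crest lineage, averaged 132.3 ± 23.9, 89.8 ± 61.2 and 1.5 ± 12.4 in the same order. All 3 probes fell.

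The matrix group holds Timp1 with 2 probes, Col28a1, Col3a1 and Ccn5, and all 5 probes fell between weeks 8 and 20. Timp1 encodes an inhibitor of matrix metalloproteinases. One probe read 88.2, 123.3, 57.5 and 250.2 in KO4, 122.8, 181.3, 118.5 and 166.3 in KO8 and 66.2, 7.0, 11.8 and 25.7 in KO20, against -7.3 to 12.2 in controls. The second probe differed by -2.16 ± 0.34 between KO20 and KO8, beside -2.07 ± 0.33 for the first. Col28a1, a collagen, averaged 177.4 ± 54.6 in KO4, 107.2 ± 72.5 in KO8 and 19.2 ± 8.9 in KO20 and was over background on 3 KO20 arrays. Col3a1, a fibrillar collagen of fibrotic liver, averaged 37.0 ± 7.8, 26.1 ± 8.3 and -1.9 ± 5.4 in the same order. Another Col3a1 probe averaged 174.0 in KO4 and 99.0 in KO8, against 72.9 in FL4, where it was over background on all 4 arrays, so the gene itself was not silent in controls.

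Taken as a sum, markers of stellate cells and matrix moved in the same direction. Over the 52 genes of that list on the array, intensity summed to 39163 to 49846 in KO4, 49309 to 56909 in KO8 and 18811 to 26696 in KO20, against 25564 to 32848 in FL4, 17473 to 18953 in FL8 and 16092 to 19116 in FL20. Of its 54 tested probes outside the set, 39 were lower and 0 higher in KO20 than in KO8. Within the list Col1a1 averaged 69.2 in KO4, 120.4 in KO8 and 22.3 in KO20, and Acta2 557.3, 930.7 and 331.9. Pdgfrb did not fall, with means of 27.7, 32.2 and 33.8 in the same order, against 18.3 in FL20. In a tissue sample fewer cells of a type and less RNA per cell cannot be told apart, and the part of these cells in the fall of the matrix genes was not tested.

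The immune group of 9 genes has 10 probes. All 10 were over background throughout KO8, 3 on at least 3 KO20 arrays, and 8 fell. Pira6, an activating immunoglobulin-like receptor of myeloid cells, read 394.4, 533.5, 421.9 and 569.8 in KO4, 452.1, 229.2, 415.6 and 174.2 in KO8 and -15.9, 5.4, 20.8 and -5.4 in KO20, against -10.7 to 5.7 in controls. The Pira genes are near-identical copies, and the probe may read more than 1 of them. Its difference was -3.88 ± 0.26 (limma adjusted p 1.8e-11). Clec2g, a C-type lectin-like gene, averaged 103.3 ± 43.3 in KO4, 352.6 ± 238.1 in KO8 and 18.5 ± 22.4 in KO20, and stayed over background on 3 KO20 arrays. Defb8, a beta-defensin, averaged 76.2 ± 56.6, 176.3 ± 112.0 and -2.0 ± 11.5 in the same order.

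The 2 that were not called were Casp4, an inflammatory caspase, and Ifi27l2b, an interferon-inducible gene. Casp4 read 46.2, 53.8, 72.8 and 23.2 in KO8 and 3.7, 39.7, 39.0 and 27.4 in KO20, with a difference of -0.63 ± 0.29 (limma adjusted p 0.0819). It passed without KO8 replicate 4 (-0.86, limma adjusted p 0.0229), without KO20 replicate 2 (-0.79, adjusted p 0.0458) and without KO20 replicate 3 (-0.78, adjusted p 0.0474). It also passed with an offset of 50 (-0.36, limma adjusted p 0.047) and with values floored at 16 (-0.46, adjusted p 0.0407). Another Casp4 probe was over background on 5 control arrays, 1 KO4 array and 0 KO8 arrays. A further one was over it on 0 control, 0 KO4, 1 KO8 and 2 KO20 arrays, so the Casp4 probes disagree. Ifi27l2b read 102.8, 121.8, 144.8 and 140.4 in KO4, 46.4, 60.2, 30.5 and 62.7 in KO8 and 4.7, 57.6, 41.2 and 69.1 in KO20, against -11.2 to 13.6 in controls. Its KO8 arrays all lay below its KO4 arrays, and 3 of its 4 KO20 arrays lay within or above the range of KO8. The difference was -0.31 ± 0.30 (limma adjusted p 0.446), and 0.14 without KO20 replicate 1.

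Macrophage markers summed over 56 genes to 53801 to 78558 in KO4, 85182 to 140292 in KO8 and 20223 to 35355 in KO20, against 27729 to 32943 in FL4, 21546 to 25333 in FL8 and 18416 to 32467 in FL20. All 62 tested probes of that list lay outside the set, and 53 were lower and 0 higher in KO20. Adgre1, which marks macrophages, averaged 789.3 ± 107.3 in KO4, 1015.7 ± 268.2 in KO8 and 257.0 ± 76.1 in KO20. T and NK cell markers summed over 33 genes to 1762 to 1872 in KO4, 2231 to 2646 in KO8 and 1927 to 2174 in KO20, against 877 to 1143 in FL4, 1023 to 1217 in FL8 and 976 to 1724 in FL20. Of the 24 tested probes of that list, 9 were lower and 2 higher in KO20 than in KO8. Within it Cd3g, a subunit of the T cell receptor complex, averaged 23.1 in KO4, 43.8 in KO8 and 25.0 in KO20, and Nkg7, of cytotoxic granules, 8.0, 24.8 and 11.6. Cd3e, another subunit of that complex, averaged 9.9, 22.8 and 21.1 in the same order, so it stayed near its KO8 level. Cd8a, a marker of cytotoxic T cells, was over background on no knockout array. Interferon-response genes outside the set were lower in KO20 for 44 of 55 tested probes and higher for 0. Neutrophil markers were lower for 8 of 12 and higher for 0. The part of these cells in the fall of the immune genes was not tested.

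The stress and cell cycle genes fell as well. Cdkn2b encodes p15, an inhibitor of cyclin-dependent kinases. It read 24.8, 35.0, 23.4 and 52.9 in KO4, 221.3, 83.4, 122.3 and 107.4 in KO8 and 30.3, 24.8, 11.6 and 19.9 in KO20, against -3.2 to 12.6 in controls (median 6.2). The KO8 mean was 3.93 times that of KO4 without overlap, and 3 KO20 arrays were still over background (difference from KO8 -1.94 ± 0.25, limma adjusted p 9.25e-07). Atf3, a stress-induced transcription factor, averaged 86.4 ± 25.2 in KO4, 106.5 ± 27.7 in KO8 and 12.4 ± 9.6 in KO20. Klf6, a zinc-finger factor of injured liver, read 23.1 to 36.8 in KO4, 18.4 to 50.8 in KO8 and -9.8 to 8.2 in KO20 on the probe of the set. Another Klf6 probe averaged 1439.7 in KO4, 1934.2 in KO8 and 424.1 in KO20, against 517.8 in FL4, 279.2 in FL8 and 275.0 in FL20, so that gene was expressed in every control liver.

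The set also holds genes with no shared role. Gm1698, a long noncoding RNA gene on chromosome 8 in RefSeq, had the largest fall of the 79. It read 579.7, 668.4, 355.1 and 623.9 in KO4, 1421.8, 785.2, 1325.8 and 503.6 in KO8 and -1.2, 5.7, 13.5 and 1.3 in KO20, against -11.6 to 5.3 in controls (median -4.7). It was at least 33.2-fold above FL4 in KO4, and KO8 was at least 57.0-fold above KO20 (difference -5.53 ± 0.26, limma adjusted p 2.11e-14). AF067063 was highest in KO4: 279.2, 492.0, 401.3 and 507.2 in KO4, 133.6, 83.1, 229.3 and 62.9 in KO8, and 18.3, -1.3, 17.2 and 4.8 in KO20. LOC100038908 behaved alike, with a KO8 mean 0.51 of the KO4 mean and no overlap, and a later difference of -3.50 ± 0.26.

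Mbd4 encodes a glycosylase that repairs deaminated methylcytosine. It averaged 26.3 ± 4.2 in KO4, 35.9 ± 8.3 in KO8 and 23.3 ± 18.1 in KO20, with KO20 replicate 1 at 49.5 and the difference at -0.49 ± 0.25 (limma adjusted p 0.122). Without that array it was -0.77 and passed (limma adjusted p 0.00981). Gramd1b was the only probe over background on all 12 knockout arrays. It read 65.1, 24.8, 27.8 and 17.6 in KO4, 47.3, 31.5, 40.3 and 33.6 in KO8 and 19.1, 18.1, 21.0 and 18.5 in KO20, against -7.3 to 14.6 in controls (median 9.7). All KO20 arrays lay below all KO8 arrays, yet the difference of -0.61 ± 0.27 did not pass in the model (limma adjusted p 0.0687). It passed with values floored at 16 (adjusted p 0.0036), with an offset of 50 (0.0366) and in a fit of the KO8 and KO20 arrays alone (0.0238).

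In all, 11 probes were not called between weeks 8 and 20. Rhox6, Olfr815 and Grip1 were already under background in KO8. Cst6, Ifi27l2b, Casp4, Tmem45b, Gramd1b, Mbd4, Popdc2 and Slc25a36 were each over background on at least 1 KO20 array, with differences between -0.63 and -0.14. Of the last 2, Popdc2 passed without KO20 replicate 3 (-0.85), and Slc25a36 without KO8 replicate 4 (-0.73), without KO20 replicate 2 (-0.77), without KO20 replicate 4 (-0.85) and in a fit without the trend (-0.62, limma adjusted p 0.044).

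Within KO8 the arrays differed across the set. Replicates 1 and 3 held the highest value for 31 and 39 of the 79 probes, and replicates 2 and 4 for 4 and 5. Summed intensity of the 79 was 10111.5, 6233.2, 10140.4 and 5109.4 on replicates 1 to 4. In KO4 the sums ran from 6140.7 to 8229.1, in KO20 from 616.7 to 902.4, and in controls from 140.1 to 290.6. The KO20 sums lay above all control sums and below every earlier knockout sum.

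Whether a gene, and not just a probe, was silent in controls could be checked for 21 genes with 29 other probes. In 4 of them, Klf6, Oasl2, Tm2d3 and Acot2, another probe was over background on all 12 control arrays, and in 14 on at least 1. In 9 genes another probe was over background on all KO4 arrays, and in 12 none was. The name "silent in controls" thus holds for the 79 probes and not for each of the 75 genes. Both other Sdcbp2 probes were over background on all 4 KO8 arrays, with means of 50.2 and 153.2. At week 4 these Sdcbp2 probes were over background on only 1 and 2 of the 4 KO4 arrays, with means of 9.9 and 19.9. Both other Tuba3a probes were over background on all KO4 and KO8 arrays, with KO4 means of 219.1 and 259.1. They were also over background on 2 and 4 of the 12 control arrays, in the same order.

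The genes were spread over the genome. Of the 70 genes matched in RefSeq, 68 were protein coding, 3 (4.29%) were on X, beside 3.75% of all array genes, and 2 (2.86%) on Y, beside 0.0819%. No members were neighbours among protein-coding genes.

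The 18 probes left aside by symbol met the same thresholds and help to place the set. Of these, 16 (88.9%) were over background on all KO8 arrays and 6 (33.3%) on all KO20 arrays, where the set had 1 of 79. Their means had a median of 335.0 in KO4, 503.3 in KO8 and 20.8 in KO20, beside 51.1, 59.9 and 5.0 in the set. They also fell between weeks 8 and 20, 16 of 18 in limma with a median difference of -2.36. The difference in brightness enters any count over a fixed threshold, and the difference between the 2 groups was not tested. A further 111 probes were silent in controls, not on throughout KO4 and on in all KO8 arrays, and 1 of them (0.901%) was on in all KO20 arrays.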

How the data were processed

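Intensity values of 25697 probes on 24 arrays were deposited after background subtraction and normalization in GenomeStudio 2011, per the submitters' processing notes; 27.8% lay below 0, and column medians ran from 13.3 to 13.6. A non-normalized table has 48 per-sample columns whose names match no sample; they were not used, and only its gene symbols were read. Symbols were updated through RefSeq (GRCm38.p6): 61 of the 79 probes had a current symbol, 13 were updated and 5 kept that of the file. The noise SD was 7.03, the root mean square of negative values. Negative values were set to 0 and log2(intensity + 16) entered limma (version 3.58.1, R 4.3.3; 6 group means over 24 arrays, moderated with a trend) for 14545 probes over background on at least 4 arrays; all 79 passed, which their KO4 signal ensures. P-values are two-sided, adjusted by Benjamini and Hochberg over those probes, threshold 0.05. The fit was tested on simulated data. Precision is limited by 4 arrays per group. KO8 and KO20 arrays of the same number did not deviate together (correlations of 0, 0.03, -0.15 and -0.12), so arrays were not paired. Probes, lists and roles were chosen with earlier results of these data known. Genes were named by role, by size of change or as exceptions, and 22 gene lists were counted without a set test.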

Additional observations from a re-analysis of the deposited data

Results flagged for a closer look

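Within groups of 4 arrays, 18 of 199 groups tested had 1 array far from the other 3 by Dixon's criterion, which chance alone does in about 1 group of 20. In KO4, replicate 1 was low for both Tuba3a probes (92.8, against 206.9 to 236.4 on the other arrays, and 68.5, against 162.0 to 185.7) and for LOC433479 (37.0, against 57.5 to 60.9). The same array was high for Acot2 (117.3, against 33.9 to 38.5) and Usp9y (97.2, against 26.1 to 29.5). KO4 replicate 3 was high for LOC100038908 (631.2, against 474.4 to 484.5), and replicate 4 was low for Ydjc (23.7, against 44.6 to 47.2).

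In KO8, replicate 4 was low for Muc13 (67.4, against 176.7 to 210.4), Gm20815 (4.5, against 91.8 to 122.7), Cst6 (17.5, against 28.7 to 30.0) and LOC545238 (1.4, against 20.9 to 24.3). Without it the difference between KO20 and KO8 was -0.25 for Cst6 and -0.97 for LOC545238, against -0.14 and -0.69 with it. KO8 replicate 3 was high for Sectm1a (116.3, against 30.1 to 34.0) and Abcc12 (25.5, against 17.8 to 18.9) and low for Nrg1 (26.3, against 79.0 to 85.5).

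In KO20, replicate 1 was high for Rbp7 (21.8, against -5.5 to -4.5) and Hebp2 (32.0, against -7.3 to 0.1), replicate 2 was high for Cdh19 (19.1, against -9.9 to -1.1), and replicate 4 was low for Atf3 (-1.8, against 15.7 to 19.5). For Rbp7, Hebp2 and Cdh19 the other arrays lay at or near 0 once negative values were set to 0, which makes such a flag easier to reach.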

How the results depend on the processing

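The count of 68 probes lower in KO20 than in KO8 ranged from 57 (of 65 left by a filter of 8 arrays) to 71 (without KO8 replicate 4) over the alternatives, and 0 were higher in each. It was 62 for the change of the knockout minus control difference, 63 with values floored at 16, and 66 of 77 without the Y-linked probes, a setting chosen after seeing the data. With the replicate number as a block it was 68, the same 68 probes, and the block changed no call. Leaving out 1 array gave 64 to 71. Probes with every KO20 array below every KO8 array numbered 58, and 59 to 67 with 1 array left out, a setting added after seeing the data. Of 1487 values for single probes 1439 kept direction and side of the threshold, 32 lost the call, 15 gained it, and Ifi27l2b reversed to 0.14 without KO20 replicate 1. It was not called in any setting, and leaving out 1 array put it between -0.54 and 0.14.

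Probes on in all KO20 arrays numbered 1, but 2 at a threshold of 12, 0 at a threshold of 24, 9 when 3 of 4 arrays sufficed, and 3 to 3 with 1 array left out, where fewer arrays must pass. Those on in all KO8 arrays numbered 49 to 73. The set itself depends on the threshold: 54 probes at 12, of which 44 are shared, and 102 at 24, of which 54 are shared. Dim probes limit the reading of KO20, where most values lie within the noise.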
